A study of Homo sapiens with 6 samples.

Results

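The lymphotoxin and tumor necrosis factor (TNF) genes examined here were the ligands LTB, LTA, TNF, TNFSF10 and TNFSF15 and the receptors LTBR, TNFRSF1A, TNFRSF1B, TNFRSF10B and TNFRSF12A. They were chosen by name from an expression table of 24000 entries. Each of the 10 genes was found as 1 of its 22859 entries outside alternative haplotype sequences. The RNA came from 6 tumors of PC-3, an androgen-independent human prostate cancer cell line, grown in nude mice. A group of 3 tumors treated with vehicle was compared with 3 tumors treated with an extract of the herb Wedelia chinensis (WCE). The labels state 10 weeks of treatment without giving a dose, while the study's text states a shorter treatment and gives differing doses. Per the study's methods, the cells carried a stably transfected firefly luciferase gene, were implanted into the anterior prostate of male athymic mice obtained at 6 weeks of age, and WCE was given daily by gavage. Host and tumor line were thus shared by both groups, and PC-3 is a single line. Athymic mice lack mature T cells but keep B cells, natural killer cells and myeloid cells, so the tumors could hold mouse cells of these kinds.

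Ligands of the TNF superfamily are mostly membrane-anchored or shed proteins that assemble as trimers and bind receptors with cysteine-rich extracellular repeats. Lymphotoxin beta, the product of LTB, has to pair with lymphotoxin alpha, the product of LTA, to reach the cell surface, where the heterotrimer binds the lymphotoxin beta receptor (LTBR) and signals to NFκB, in large part through the non-canonical pathway of NIK, RELB and NFKB2. TNF and the soluble homotrimer of lymphotoxin alpha bind TNFRSF1A and TNFRSF1B. In lymphoid tissue the LTB and LTBR axis is known for building lymph nodes and follicles, and some prostate and other carcinoma cells also express these genes.

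A pair of libraries from opposite groups was nearly the same. Vehicle replicate 3 and WCE replicate 1 differed by a median of 0.028 on the log2 scale across the 1915 entries whose average reached 50 FPKM (fragments per kilobase of a transcript, relative to all mapped fragments). The remaining 14 pairings differed by 0.095 to 0.247. WCE replicate 1 had 15805 entries above 0, and vehicle replicate 3 was at 0 in 0 of these. WCE replicate 1 was the shallowest library, at 25.0% of the depth of vehicle replicate 3, and the others lay between 64.8% and 85.2%. Among the 10 genes, this pair differed by 0.17 on the log2(FPKM + 1) scale in LTB and by at most 0.060 in the other 9. These values are those that a single library read at unequal depth could give, and whether the pair is such a library was not tested. Group sizes of 3 count them as separate tumors, as the labels do. Fold changes are therefore given over all 6 tumors and again without this pair. Nothing in the labels names separate animals for each replicate number, so the p-values measure the spread between these samples.

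In these tumors 4 of the 5 receptors stood above all 5 ligands, and TNFRSF1B had the lowest mean of the 10 genes. TNFRSF12A, the receptor of the ligand TWEAK, had the highest level, between 184 and 275 FPKM. LTBR followed at 92.0 to 116 FPKM, and TNFRSF1A and TNFRSF10B, a death receptor of TNFSF10, came next at 35.4 to 54.0 and 32.4 to 39.3 FPKM. The ranges of neighbours in this order did not meet between TNFRSF12A and LTBR or between LTBR and TNFRSF1A, whereas those of TNFRSF1A and TNFRSF10B overlapped. Below them stood LTB at 4.75 to 29.8 FPKM, TNFSF10 at 5.88 to 16.5 FPKM and TNFSF15 at 2.45 to 10.2 FPKM, all overlapping one another. TNF, LTA and TNFRSF1B were below 1 FPKM in every tumor. These last 3 genes had a mean FPKM under 0.5, the minimum for the comparison across all entries, which left 7 of the 10 genes and 13287 entries tested. Among the 3 ligands tested, the highest tumor exceeded the lowest by 2.82-fold to 6.28-fold, and among the 4 receptors tested by 1.21-fold to 1.52-fold. The standard deviation within groups on the log2(FPKM + 1) scale was 0.50 to 0.83 for the ligands and 0.096 to 0.16 for the receptors. These receptors were also the more abundant genes, and the part of the level in this spread was not tested.

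**Figure D1:**
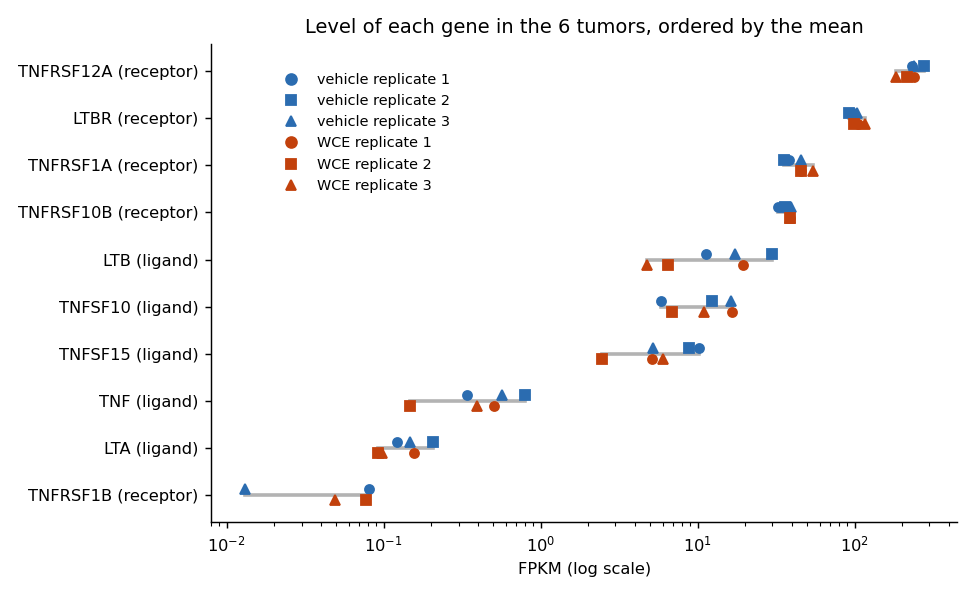
FPKM on a log axis for the 10 genes in order of their mean, with 1 point for each of the 6 tumors. The receptors TNFRSF12A and LTBR lie at 92.0 FPKM or more and the ligands LTA and TNF below 1 FPKM. TNFRSF1B was at 0 in vehicle replicate 2 and WCE replicate 1, which a log axis cannot show.

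Over all 6 tumors LTB had the largest log2 difference of the 3 ligands tested, but its size depended on which tumors were kept. Without vehicle replicate 2 it was -0.64 against -0.66 for TNFSF15, and without WCE replicate 3 it was -0.62 against -0.93. Its entry lies on the short arm of chromosome 6 (chr6:31548336-31550202, hg19). LTB stood at 11.3, 29.8 and 17.2 FPKM with vehicle and at 19.5, 6.48 and 4.75 FPKM with WCE. The lowest values were those of WCE replicates 2 and 3, but WCE replicate 1 lay above 2 of the 3 vehicle-treated tumors, so that the groups overlapped. The means were 19.5 ± 9.47 FPKM (SD, n = 3) with vehicle and 10.3 ± 8.08 FPKM (SD, n = 3) with WCE. The log2 fold change of LTB, on the log2(FPKM + 1) scale used for all fold changes here, was -0.99 (SE 0.50; limma p = 0.0858, adjusted p = 0.623, exact two-sided permutation p = 0.3). The smallest p that this exact test can give with 3 against 3 tumors is 0.1. Without vehicle replicate 3 and WCE replicate 1, LTB was -1.57 (SE 0.44, limma adjusted p = 0.205), which passed an unadjusted p of 0.05 but not the adjusted one. The study listed LTB among several genes lower in these tumors, so its direction here is not independent evidence.

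LTB, TNF and LTA lie side by side, with 1251 bases between LTA and TNF and 2223 between TNF and LTB, so their promoters are shown together, followed by that of TNFSF15, the ligand with an unadjusted p under 0.05. The promoter sequences available here, placed by RefSeq starts (GRCh38.p14), covered 8 of the 10 genes. Each of the promoters shown is the 250 bases before the transcription start. They are LTB at chr6:31582426-31582675 (minus strand), the downstream of the listed starts of LTA at chr6:31572039-31572288 (plus strand), TNF at chr6:31575315-31575564 (plus strand) and TNFSF15 at chr9:114792531-114792780 (minus strand). Capitals mark the κB consensus in LTB and LTA, TATAAA in LTA and TNF, and TGANTCA, the letters of an AP-1 site, in TNFSF15.
LTB: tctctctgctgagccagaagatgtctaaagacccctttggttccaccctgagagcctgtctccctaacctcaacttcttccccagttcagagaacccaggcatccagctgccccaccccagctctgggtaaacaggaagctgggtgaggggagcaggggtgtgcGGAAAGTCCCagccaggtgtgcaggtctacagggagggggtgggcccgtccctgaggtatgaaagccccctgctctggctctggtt
LTA: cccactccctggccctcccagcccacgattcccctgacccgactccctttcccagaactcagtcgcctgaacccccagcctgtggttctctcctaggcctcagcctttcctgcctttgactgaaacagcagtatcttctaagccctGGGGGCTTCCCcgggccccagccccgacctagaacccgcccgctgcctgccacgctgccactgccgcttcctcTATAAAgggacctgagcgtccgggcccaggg
TNF: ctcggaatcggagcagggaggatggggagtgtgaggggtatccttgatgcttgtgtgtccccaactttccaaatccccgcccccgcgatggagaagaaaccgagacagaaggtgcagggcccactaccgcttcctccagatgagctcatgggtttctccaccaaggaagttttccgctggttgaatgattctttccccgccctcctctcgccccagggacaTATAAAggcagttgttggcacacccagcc
TNFSF15: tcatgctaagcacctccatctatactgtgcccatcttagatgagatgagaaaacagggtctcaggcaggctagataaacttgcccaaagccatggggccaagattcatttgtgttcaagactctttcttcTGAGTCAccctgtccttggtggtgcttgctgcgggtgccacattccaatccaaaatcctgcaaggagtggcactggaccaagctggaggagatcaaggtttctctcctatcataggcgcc

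Both strands were searched for each motif. The κB consensus, to which NFκB dimers bind, matched LTB from 86 to 77 bases before the start, on the strand opposite to the gene. In LTA it matched at overlapping places from 104 to 94 bases before the start, and it had no match in the windows of TNF, TNFSF15, TNFSF10, LTBR, TNFRSF1A or TNFRSF1B. Of all 35116 promoter windows of this length, 9.96% held the κB consensus. TATAAA, the core of a TATA box, stood 31 to 26 bases before the start in LTA and TNFSF10 and 29 to 24 bases before it in TNF, and 10.7% of all windows held it. TGANTCA matched TNFSF15 from 120 to 114 bases before the start, against 6.57% of all windows. GGGCGG, the letters of a GC box, was found at 4 places in LTBR, at 2 in TNF, at 2 in TNFRSF1B and at 1 in LTA, and in 42.6% of all windows. A match describes the letters of these windows and not the binding of a factor.

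LTA and TNF, the neighbours of LTB, were barely above 0. LTA, which lymphotoxin beta needs as a partner, stood at 0.121, 0.207 and 0.147 FPKM with vehicle and at 0.156, 0.0917 and 0.0976 FPKM with WCE. TNF, the classical inflammatory ligand, was at 0.340, 0.791 and 0.565 FPKM with vehicle and at 0.502, 0.147 and 0.392 FPKM with WCE. For LTA and TNF alike, vehicle replicate 2 was the highest tumor and WCE replicate 2 the lowest, and the groups overlapped. The exact permutation test gave p = 0.3 for each gene. LTA lies at chr6:31539876-31542098 and TNF at chr6:31543350-31546112. Alternative haplotype sequences listed LTA 6 times and TNF and LTB 7 times each, at 0 in every tumor.

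TNFSF15, also called TL1A, is the ligand of the death receptor DR3 (TNFRSF25), and it was lower with WCE by the unadjusted test. Its levels were 10.2, 8.77 and 5.23 FPKM with vehicle and 5.16, 2.45 and 6.00 FPKM with WCE. Vehicle replicates 1 and 2 stood above all WCE-treated tumors, and vehicle replicate 3 lay within the WCE range. TNFSF15 averaged 8.06 ± 2.55 FPKM (SD, n = 3) with vehicle and 4.54 ± 1.86 FPKM (SD, n = 3) with WCE. The log2 fold change was -0.73 (SE 0.31, limma p = 0.0468, adjusted p = 0.623, exact permutation p = 0.2). Without the alike pair it was -1.09 (SE 0.34, limma adjusted p = 0.218). TNFSF15 lies at chr9:117546915-117568408.

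TNFSF10, the apoptosis-inducing ligand TRAIL, varied as widely within each group as between tumors of opposite groups. It measured 5.88, 12.3 and 16.2 FPKM with vehicle and 16.5, 6.90 and 11.0 FPKM with WCE. The highest values were those of the alike pair, and the lowest was in vehicle replicate 1. The means were 11.5 ± 5.24 and 11.5 ± 4.84 FPKM (SD, n = 3 each), and the log2 fold change of TNFSF10 was 0.02 (SE 0.39, limma p = 0.951, adjusted p = 0.987, exact permutation p = 0.9). The same value of 0.02 was found without the alike pair. A change the size of this standard error would not have been detectable here. TNFSF10 lies at chr3:172223298-172241297.

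**Figure D2:**
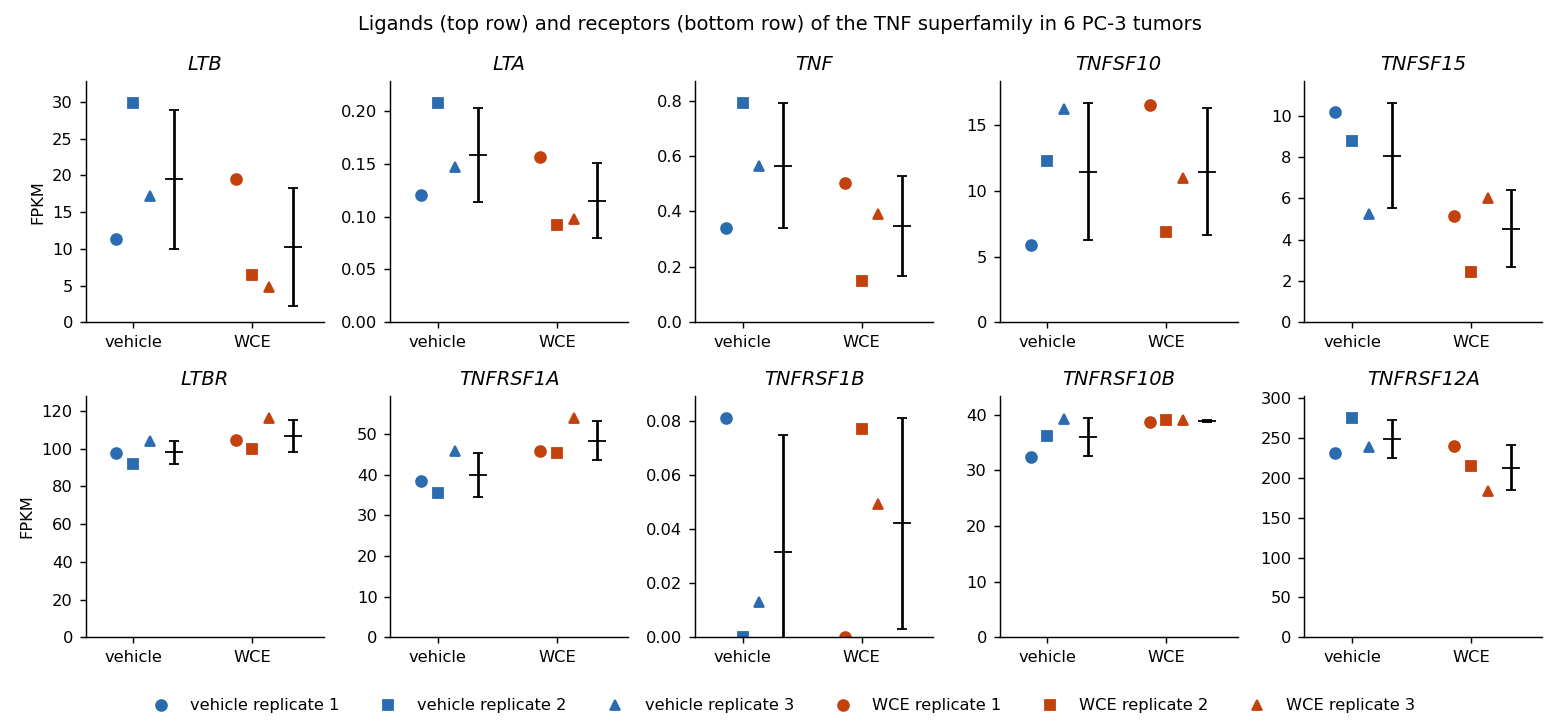
FPKM of each of the 10 genes by tumor, with ligands in the top row and receptors in the bottom row, and with the mean and standard deviation of each group as a bar cut at 0. LTB was lowest in WCE replicates 2 and 3, at 6.48 and 4.75 FPKM, while WCE replicate 1 sat beside vehicle replicate 3.

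The receptors tested had log2 fold changes between -0.23 and 0.28. TNFRSF1A, the ubiquitous TNF receptor with a death domain, stood at 38.4, 35.4 and 45.9 FPKM with vehicle and at 45.8, 45.4 and 54.0 FPKM with WCE. Vehicle replicate 3 reached the lower WCE values, so the groups overlapped, with means of 39.9 ± 5.40 and 48.4 ± 4.85 FPKM (SD, n = 3 each). The log2 fold change of TNFRSF1A was 0.28 (SE 0.13, limma p = 0.0628, adjusted p = 0.623, exact permutation p = 0.3), and 0.42 without the alike pair (SE 0.13, adjusted p = 0.216). TNFRSF1A and LTBR lie 42073 bases apart on chromosome 12, at chr12:6437923-6451283 and chr12:6493357-6500732.

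LTBR, the receptor of the lymphotoxin heterotrimer, had levels of 97.6, 92.0 and 104 FPKM with vehicle and of 105, 99.7 and 116 FPKM with WCE. The highest tumor was WCE replicate 3 and the lowest was vehicle replicate 2, with overlap between. Its log2 fold change was 0.12 (SE 0.10, limma p = 0.258, adjusted p = 0.690, exact permutation p = 0.2), and 0.18 without the alike pair (SE 0.12, adjusted p = 0.450). LTBR thus stood above LTB in each of the 6 tumors, since the ranges of the genes on the FPKM scale did not meet.

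TNFRSF12A, also called Fn14, measured 232, 275 and 239 FPKM with vehicle and 239.6, 215 and 184 FPKM with WCE. The lowest values were those of WCE replicates 2 and 3 and the highest that of vehicle replicate 2, as in LTB. The log2 fold change of TNFRSF12A was -0.23 (SE 0.13, limma p = 0.117, adjusted p = 0.623, exact permutation p = 0.3), and -0.34 without the alike pair (SE 0.14, adjusted p = 0.292). It lies at chr16:3070313-3072383.

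TNFRSF10B, also called DR5, was at 32.4, 36.2 and 39.3 FPKM with vehicle and at 38.7, 39.0 and 39.1 FPKM with WCE. The WCE-treated tumors lay within 1 FPKM of one another, and vehicle replicate 3 lay above all of them. The log2 fold change was 0.11 (SE 0.099, limma p = 0.284, adjusted p = 0.713, exact permutation p = 0.4), and 0.18 without the alike pair (SE 0.11, adjusted p = 0.411). Its locus in the table, chr8:22844930-22941132, is shared by 3 overlapping entries, so reads of TNFRSF10B and its neighbours may not be cleanly split. TNFRSF1B, the TNF receptor found mainly on immune and endothelial cells, was at 0.0811, 0 and 0.0131 FPKM with vehicle and at 0, 0.0771 and 0.0492 FPKM with WCE. Its 0 values came in vehicle replicate 2 and in the shallow WCE replicate 1, and its entry (chr1:12227060-12269277) is joined with MIR4632.

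Read as a group, 1 of the 7 genes tested was lower with WCE at an unadjusted limma p under 0.05, TNFSF15, where 3.33% of all 13287 entries were. By the same measure 0 of 7 were higher, where 3.78% of all entries were, and the share in either direction was 7.10% of all entries. At an adjusted p under 0.05 limma called 0 of 7, against 0.00753% of all entries, and the unmoderated test called 0 of 7 at either threshold. The vehicle and WCE ranges met in each of the 7 genes, while over all entries they did not meet in 6.40% that were lower and 6.37% that were higher. LTB, TNFSF15 and TNFRSF12A had negative log2 fold changes and the other 4 positive ones, with a median of 0.02 against -0.01 over all entries tested. Without the alike pair, LTB and TNFSF15 were lower at an unadjusted p under 0.05, where 9.59% of all entries were, and TNFRSF1A was higher, where 8.84% were. In that comparison of 2 against 2 tumors, 0 of the 7 passed an adjusted p of 0.05, against 0.0376% of all entries.

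**Figure D3:**
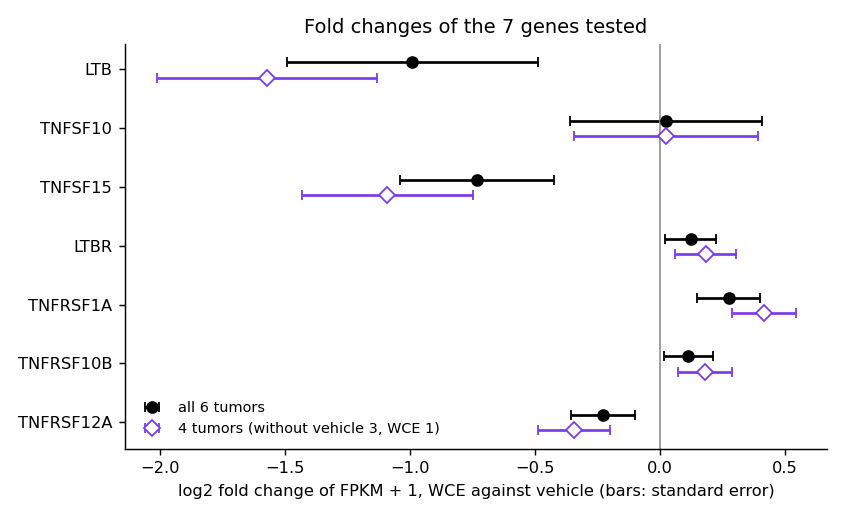
Log2 fold changes of FPKM + 1, WCE against vehicle, for the 7 genes tested, with the standard error as a bar. Filled points use all 6 tumors and open diamonds leave out vehicle replicate 3 and WCE replicate 1, where LTB went from -0.99 to -1.57.

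Across the 6 tumors LTA and TNFRSF12A had levels ordered much as those of LTB. Pearson's r with LTB on the log2(FPKM + 1) scale was 0.95 for TNFRSF12A and, at levels near 0, 0.96 for LTA and 0.81 for TNF. It was 0.52 for TNFSF10 and 0.43 for TNFSF15. It was -0.64 for LTBR, -0.69 for TNFRSF1A, -0.19 for TNFRSF10B and, at levels near 0, -0.77 for TNFRSF1B. These values describe 6 points that share the alike pair and their libraries' depth, and no test was made of them. Of the other 13286 entries tested, 329 had an r above 0.9 and 371 an r below -0.9, so a value of this size was reached by many genes. LTA, TNF and TNFRSF1B were below the minimum and are not among these entries. The 5 closest to LTB were PANK2, SMAD6, PHF16, CA13 and TMEM129, with r from 0.993 to 0.996. The 5 most opposed were SARS, RPS27, HDLBP, C9orf86 and PRR14L, with r from -0.993 to -0.988. SMAD6, an inhibitor of BMP signalling, ran from 1.30 to 3.16 FPKM, and RPS27, a ribosomal protein gene, from 5538 to 7975 FPKM.

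**Figure D4:**
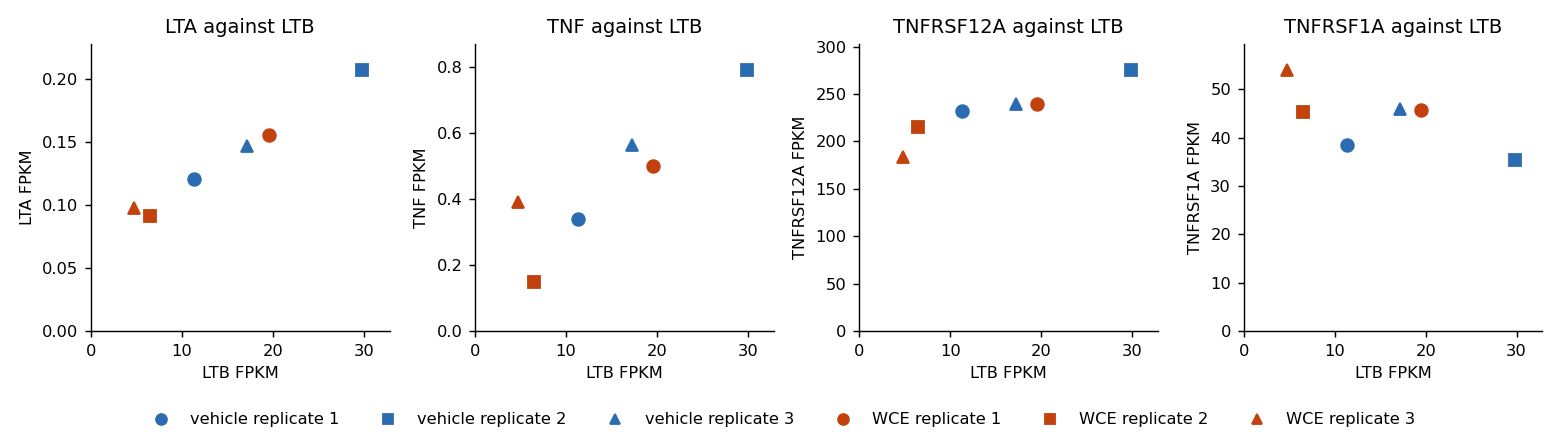
FPKM of other genes of the group against FPKM of LTB, with 1 point for each of the 6 tumors. TNFRSF12A was lowest where LTB was lowest, in WCE replicate 3 at 184 and 4.75 FPKM, and highest where LTB was highest, in vehicle replicate 2 at 275 and 29.8 FPKM.

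Most other ligands of the superfamily were scarce. Of 13 further ligand genes, TNFSF12 and TNFSF13 share 1 entry, which makes 12 entries, and 8 were below the minimum. TNFSF11 and CD40LG were listed at 0 in every tumor. Of the 4 tested, 0 had an unadjusted limma p under 0.05 or an adjusted one, and the median log2 fold change was 0.09. The highest were the joined entry of TNFSF12, which encodes the TNFRSF12A ligand TWEAK, and TNFSF13, at a mean of 17.8 FPKM, and CD70, the ligand of CD27, at 7.20 FPKM. TNFSF14, the other ligand of LTBR, ranged from 0.0208 to 0.424 FPKM.

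Among 24 further receptors, 14 were tested, and 1 was lower and 0 higher at an unadjusted limma p under 0.05, where 3.33% and 3.78% of all entries were. Without the alike pair 2 were lower and 2 higher, where 9.59% and 8.84% of all entries were. The lower gene over all 6 tumors was TNFRSF18, the co-stimulatory receptor GITR, at 10.7, 10.5 and 9.17 FPKM with vehicle and 8.94, 6.40 and 8.04 FPKM with WCE. All of its vehicle-treated tumors stood above all of its WCE-treated tumors, with vehicle replicate 3 and WCE replicate 1 next to each other, and its log2 fold change was -0.35 (SE 0.13, limma adjusted p = 0.623). The most abundant were TNFRSF21, also called death receptor 6, at a mean of 99.7 FPKM, and TNFRSF25, the TNFSF15 receptor, at 47.9 FPKM in an entry joined with PLEKHG5. That joined entry ranged from 34.7 to 53.4 FPKM, and the share of TNFRSF25 in it is not known. The median log2 fold change of the receptors tested was -0.06.

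The signalling genes below these receptors were expressed throughout, and 28 of 28 were tested. RNF31, the catalytic subunit of the linear ubiquitin ligase, was higher at 13.9, 13.4 and 15.9 FPKM with vehicle and 18.0, 16.8 and 19.1 FPKM with WCE, with a log2 fold change of 0.30 (SE 0.10, limma adjusted p = 0.623). It was the 1 gene of the 28 that was higher at an unadjusted p of 0.05, near the 3.78% of all entries that were, and 0 were lower. Without the alike pair 3 were higher and 1 lower, where 8.84% and 9.59% of all entries were. The median log2 fold change was 0.02. The most abundant were FADD, the adaptor of the death receptors, at a mean of 57.4 FPKM, and SHARPIN, a partner of RNF31, at 55.9 FPKM. Of the non-canonical pathway used by LTBR, MAP3K14 (NIK) averaged 5.32 FPKM, RELB 6.46 FPKM and NFKB2 16.5 FPKM, with log2 fold changes of 0.08, -0.19 and 0.16, and limma called none of the 3 at an unadjusted p of 0.05.

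Genes known to be induced by TNF receptors and LTBR through NFκB were also counted. Of 18 such genes 13 were tested, and 5 were lower at an unadjusted limma p under 0.05, where 3.33% of all entries were. None of the 13 was higher, and 0 passed at an adjusted p. Without the alike pair 6 of 13 were lower, where 9.59% of all entries were. Their median log2 fold change was -0.38 against -0.01 over all entries, and the groups did not overlap in 4 of the 13, all lower with WCE, where 6.40% of all entries were so. CXCL8, a neutrophil chemokine, went from 240 ± 54.0 to 157 ± 35.0 FPKM (SD, n = 3 each; log2 fold change -0.61, limma adjusted p = 0.623). IL6, an inflammatory cytokine, was at -0.60, CXCL1, another neutrophil chemokine, at -0.53, IER3, an early response gene, at -0.49, and TNFAIP8, an anti-apoptotic gene, at -0.38 on the same scale. The study had picked CXCL8, IL6 and CXCL1 as lower in these tumors, so they are not independent evidence. They are among the genes called here and among those whose groups did not overlap. The counts and the median of this list are therefore not independent evidence either. NFKBIA and ICAM1, further textbook targets, had log2 fold changes of -0.11 and 0.01, and neither had an unadjusted p under 0.05. TNFAIP3, BIRC3, TRAF1, NFKB2 and RELB, which NFκB also induces, were counted among the signalling genes and not in this list. Their log2 fold changes were -0.30, -0.08, -0.16, 0.16 and -0.19, and none had an unadjusted p under 0.05. CCL19, CCL21 and CXCL13, the lymphoid chemokines for which LTBR is known in lymph nodes, were below the minimum with means under 0.2 FPKM. ADAM17 and ADAM10, which shed many of these ligands and receptors, averaged 16.5 and 13.2 FPKM, and 0 of the 2 had an unadjusted p under 0.05.

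**Figure D5:**
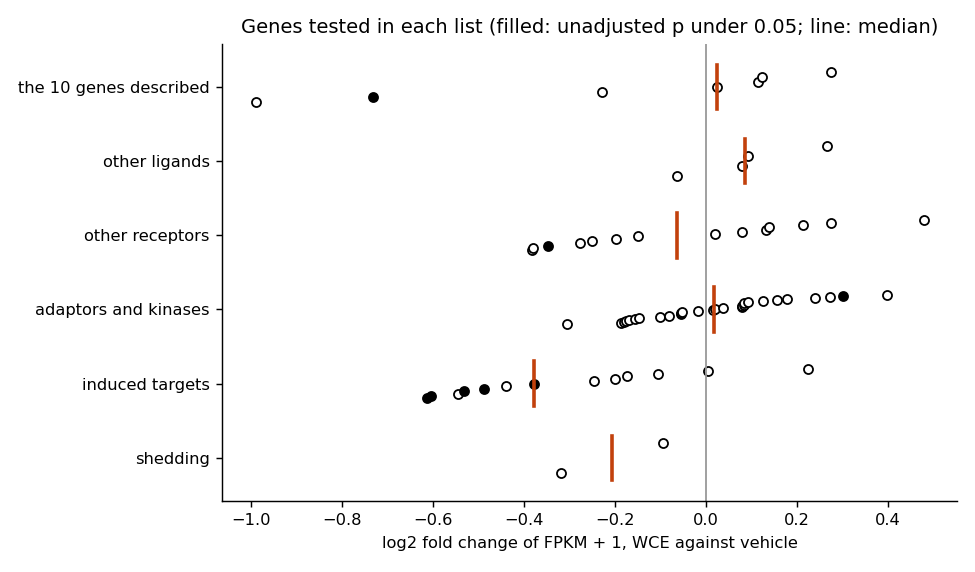
Log2 fold changes of FPKM + 1, WCE against vehicle, of every tested gene in each list, with 1 point for each gene, filled where the unadjusted p was under 0.05, and a line at the median. The signalling genes are the row of adaptors and kinases, which also holds TNFAIP3, BIRC3, TRAF1, NFKB2 and RELB, themselves induced by NFκB. The induced targets have a median of -0.38, and the other receptors and the signalling genes have medians of -0.06 and 0.02. The induced targets include CXCL8, IL6 and CXCL1, which the study had picked as lower in these tumors.

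Markers of the cells that these tumors could hold were measured beside the ligands, because in bulk tumors fewer cells of a type and less RNA per cell cannot be told apart. The entries are those of human genes, while the host cells are mouse cells. Host cells would thus show in these markers only through mouse reads counted to human genes, which was not tested. Keratins of the labelled epithelial line were high. KRT8, KRT18 and KRT19 averaged 228, 292 and 535 FPKM, and KLK3, a secreted product of the prostate epithelium, was at 0 in every tumor. EPCAM, an epithelial surface protein, was lower with WCE at an unadjusted p under 0.05, with a log2 fold change of -0.73 (limma adjusted p = 0.623). The keratins KRT8, KRT18 and KRT19 were at 0.05, 0.10 and -0.01 on the same scale (limma adjusted p = 0.911, 0.801 and 0.986). The human lymphocyte markers CD3E and MS4A1 were at 0 in all 6 tumors, and the sum of the 5 lymphocyte markers reported was 0.305 to 0.795 FPKM with vehicle and 0.347 to 1.12 FPKM with WCE. CD79A, a B cell marker, made up most of that sum in every tumor, at 0.258 to 0.877 FPKM. LTB, which lymphocytes also express, was at 4.75 to 29.8 FPKM in the same tumors. Low values of human lymphocyte genes do not measure mouse lymphocytes, and the cells behind the LTB values were not tested.

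The 6 myeloid markers summed to 25.8 to 41.4 FPKM with vehicle and 40.4 to 44.7 FPKM with WCE, almost all of it CD68, a lysosomal protein that carcinoma cells also express, while PTPRC, ITGAM, CSF1R, CD14 and LYZ were each under 0.7 FPKM in every tumor. The 4 endothelial markers summed to 1.20 to 3.30 FPKM with vehicle and 3.13 to 7.56 FPKM with WCE, with KDR higher (log2 fold change 1.14, unadjusted p under 0.05, limma adjusted p = 0.623). KDR alone reached 5.12 FPKM in WCE replicate 3, while PECAM1 had a log2 fold change of 0.14 (limma adjusted p = 0.877), and CDH5 and VWF were under 0.1 FPKM in every tumor. The 4 fibroblast markers summed to 41.9 to 56.0 FPKM with vehicle and 12.7 to 55.2 FPKM with WCE, with LUM lower (log2 fold change -0.85, unadjusted p under 0.05, limma adjusted p = 0.623) and the lowest sum in WCE replicate 2. The part of these cells, and of mouse reads, in the levels of the ligands was not tested.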

How the data were processed

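RNA-seq of 6 PC-3 xenograft tumors was analysed, 3 vehicle-treated and 3 WCE-treated, grouped by their labels. The authors deposited FPKM values per gene entry in 1 table of 24000 entries laid out as a Cufflinks gene table, from stranded libraries of polyadenylated RNA. Per the labels, the submitters' processing notes name TopHat2 2.0.13, Cufflinks, hg19 and mm10 without a role. The haplotype names in the table are those of hg19, and table loci are printed counted from 1. Mouse reads may have been kept or removed, which is not given in the sources used here. No columns were left out. The number of reads behind a value is unknown, and intervals for counting error were not computed. Relative depth was taken from the commonest ratio of FPKM values to those of vehicle replicate 3. It used entries with 1 listed transcription start that were above 0 in at most 3 of the 6 tumors. For the other libraries it rests on 71 to 131 entries.

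Values were changed to log2(FPKM + 1), entries averaging at least 0.5 FPKM were kept, and limma 3.58.1 (R 4.3.3, mean-variance trend, two-sided, Benjamini-Hochberg adjustment over 13287 entries, threshold 0.05) compared the groups. Entries on alternative haplotype sequences were set aside in finding the genes, but they went through the same filter for this comparison. Fold changes on this scale understate the change of low genes. Single values were compared by an exact two-sided permutation test of the 6 tumors. The scripts were tested on simulated data. Figures used Python 3.11.15 and matplotlib 3.10.9.

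The members and lists were chosen with earlier results of these data known. Named genes were all members, from each other list at most 4 genes in each direction with an unadjusted p under 0.05 and the 2 most abundant, and the 5 entries with the highest and the 5 with the lowest r with LTB. TNFSF14, MAP3K14, RELB, NFKB2, TNFAIP3, BIRC3, TRAF1, NFKBIA, ICAM1, TNFAIP8, the lymphoid chemokines, the ADAM genes, the genes at 0 and the markers were named besides for their role, after their values were seen. CXCL8 is listed as IL8. A few marker genes are not reported here. The 18 alternatives changed the pseudocount, filter, scaling, trend, moderation, tumor weights, replicate block, haplotype entries and tumors kept. The values at 0 were taken as listed.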

Additional observations from a re-analysis of the deposited data

How the results depend on the processing

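Across 18 alternatives the fold changes of LTB, TNFSF15, TNFRSF12A, LTBR, TNFRSF1A and TNFRSF10B kept their direction, and 0 of the members tested passed an adjusted p in any of them. Those that changed only the filter, trend, moderation, replicate block or haplotype entries could not move these fold changes, so the direction was fixed there. With 1 tumor left out, LTB ranged from -1.54 to -0.62, the lower value without WCE replicate 1, where it passed an unadjusted limma p of 0.05. LTB was also past an unadjusted p of 0.05 with array weights, at -1.76, and without vehicle replicate 3 and WCE replicate 1, at -1.57. TNFSF10 turned to -0.20 with array weights and ranged from -0.36 to 0.32 with 1 tumor left out. TNFSF15 lost its unadjusted call in 7 of 18. The median of the members was -0.20 with array weights and -0.28 to 0.17 with 1 tumor left out. Members past an unadjusted p of 0.05 numbered 0 when no entry was filtered out, 0 with the unmoderated test, 2 with quantile normalization, 3 with array weights and 3 without the alike pair, and 0 to 3 with 1 tumor left out, 3 of them without WCE replicate 1. Over all entries the count of 944 became 593 with the unmoderated test, 3201 with array weights, 2449 without the alike pair and 219 to 2033 with 1 tumor left out. Entries past an adjusted p were 1 at first, 0 with no filter and 0 with the unmoderated test, 5 without the alike pair and 1 to 7 with 1 tumor left out. The cause of these changes was not tested.

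The labels do not say whether replicate numbers pair the tumors. The correlation of deviations from the group means was -0.24, 0.16 and -0.09 for tumors 1, 2 and 3. With 3 tumors a group these values cannot decide whether the numbers pair them. With the replicate block, LTB was at -0.99 (SE 0.56), TNFRSF1A in place of TNFSF15 was the 1 member past an unadjusted p of 0.05, and 1049 entries were past it. WCE replicate 1, at 25.0% relative depth, was the least deeply sequenced tumor, and the values of LTA, TNF and TNFRSF1B were below 1 FPKM there.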

Other observations

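Around the cluster of LTA, TNF and LTB, 10 other entries lay within 50000 bases, and 3 of them were tested. DDX39B, an RNA helicase whose entry is joined with ATP6V1G2, was at 103 ± 7.37 FPKM with vehicle and 93.4 ± 0.192 FPKM with WCE (SD, n = 3 each; log2 fold change -0.14, limma adjusted p = 0.647). NFKBIL1 was at 21.4 ± 2.67 and 18.5 ± 1.63 FPKM (log2 fold change -0.20, limma adjusted p = 0.629) and PRRC2A at 40.9 ± 6.57 and 42.1 ± 2.24 FPKM (0.05, limma adjusted p = 0.912). LST1, a leukocyte gene next to LTB named after its values were seen, measured 0.138, 0.321 and 0.176 FPKM with vehicle. It was listed at 0 in the 3 WCE-treated tumors and was below the minimum for a test. Among these, WCE replicate 1 was the shallow library, and 1419 entries above 0 in vehicle replicate 3 were at 0 in it. Over all entries tested, which do not include LST1, the groups did not overlap in 6.40% that were lower. The share among entries below the minimum was not computed.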
